A study of Homo sapiens with 12 samples.

Results

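The 10 transcripts described here encode structural proteins of the cornified envelope and the hair follicle, measured here in the human embryonic kidney line HEK293 and in the extracellular vesicles (EVs) it releases. They are TCHH, EVPL, PPL, DSP, FLG, FLG2, HRNR, RPTN, IVL and LORICRIN, 10 of the 57773 genes in the table. The group was chosen by the measured excess of TCHH and EVPL in EVs over cells, which is among the greatest in the table, so values of EVs against cells are given below as a description, with no test. Hypoxia against normoxia did not enter that choice and was tested. All 4 groups, hypoxia EVs, normoxia EVs, hypoxia cells and normoxia cells (3 libraries each), came from HEK293 cells in medium with 10% serum that had received the 4EC1 vectors by lipofection. The full vector name holds eGFP, EIF4E, C-YTHDF1/GBP1 and CD9. Per the labels' protocols, transfection ran for 48 h, and the hypoxia groups then spent 24 h in a hypoxia chamber. Transfection was transient, and a group without the vectors is not analysed here. TRIzol served for the RNA of the cells and the exoRNeasy midi kit for that of the EVs, and all libraries were made with a SMARTer stranded total RNA kit.

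The cornified envelope is the cross-linked protein shell that replaces the plasma membrane of a keratinocyte at the end of its differentiation. Plakins such as envoplakin, periplakin and desmoplakin tie it to keratin filaments and desmosomes, and involucrin, loricrin and the proteins of the filaggrin family are laid onto it by transglutaminases. Trichohyalin, the TCHH product, fills the inner root sheath and medulla of the hair follicle, where it is cross-linked to keratins. These proteins are best known from skin and hair, and desmoplakin also from the desmosomes of other epithelia and of the heart.

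Cell libraries held 18059381 to 23400813 reads, and EV libraries held 3259453 to 7001767. A single read was worth 0.481 to 0.551 deposited units in cells and 1.34 to 2.52 in EVs, so low values are coarser in EVs. The labels do not say that the replicates came from separate cultures, so the spread among libraries may be technical, and the p-values do not reach beyond these libraries. The limma-trend fits also draw the variance of each gene toward that of genes of similar level. Their SEs and p-values thus rest partly on the spread of other genes, and not on a gene's own libraries alone. Normoxia EV replicate 3 stood between the other 2 normoxia EV libraries and the hypoxia EV libraries in the read density over olfactory receptor genes, which is described below. The 9 markers of the HEK293 line that were found, among them NEFM, IRS4 and STMN1, were above 0 in all 4 groups. So were all 20 markers of blood cells and plasma, so a value above 0 does not identify the line.

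TCHH was high in the EV libraries and low in the cells. TCHH (ENSG00000159450) lies at chr1:152106317-152115454 on the minus strand of GRCh38, and 1 of its 3 exons holds 96.7% of the transcript. It stood at 2542, 2354 and 2269.8 deposited units in hypoxia EVs, at 2443, 2029 and 2355 in normoxia EVs, at 95.2, 62.3 and 88.1 in hypoxia cells, and at 85.6, 81.6 and 109.7 in normoxia cells. All 6 EV libraries lay above all 6 cell libraries, and within each compartment the hypoxia and normoxia libraries overlapped. The mean was 2332 ± 175 in EVs and 87.1 ± 15.7 in cells (SD, n = 6 each), a ratio of 26.8. The cell value rests on 1011 reads over the 6 libraries and is well above the 1.44 to 1.65 units that a count of 0 would allow. In bulk RNA, fewer vesicles or cells that carry a transcript and less of it in each cannot be told apart. Scaled to exon length and library size (RPKM, reads per kb of exon at a common library size), TCHH had 34.1 ± 8.78 in EVs and 1.20 ± 0.193 in cells (SD, n = 6 each). On the log2(value + 1) scale, EVs exceeded cells by 4.74, the 9th highest difference among the 10259 protein-coding genes averaging 100 units or more. Among all 16823 protein-coding genes of the fit, it was the 73rd highest. Such a rank is part of why the gene was chosen. The coding sequence is 69.6% purine on the mRNA strand, above 99.9% of protein-coding genes, and IVL follows with 65.01%. Both encode long repeats rich in glutamic acid and glutamine, and the most purine-rich 120 bases of each are shown, with runs of 6 or more purines in capitals. The TCHH stretch lies at chr1:152110164-152110283 (minus strand) and the IVL stretch at chr1:152910060-152910179 (plus strand), both in GRCh38.
TCHH: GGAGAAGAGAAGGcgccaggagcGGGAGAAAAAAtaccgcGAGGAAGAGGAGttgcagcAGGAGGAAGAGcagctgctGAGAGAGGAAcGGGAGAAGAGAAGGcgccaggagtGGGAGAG
IVL: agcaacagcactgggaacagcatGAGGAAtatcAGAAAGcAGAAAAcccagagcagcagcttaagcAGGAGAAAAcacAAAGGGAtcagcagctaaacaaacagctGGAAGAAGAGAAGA

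The 3 plakins differed from each other. EVPL and PPL are the envoplakin and periplakin genes, whose products pair to form the first scaffold under the membrane, and DSP encodes desmoplakin, the link between desmosomes and keratin filaments. EVPL (ENSG00000167880, chr17:76004502-76027452, minus strand) stood at 556, 726 and 547 units in hypoxia EVs, at 673, 564 and 602 in normoxia EVs, at 24.9, 23.2 and 20.5 in hypoxia cells, and at 34.7, 13.8 and 41.9 in normoxia cells. Each EV library was at least 547 units and each cell library at most 41.9. EVPL averaged 611 ± 72.9 units in EVs and 26.5 ± 10.2 in cells (SD, n = 6 each), a ratio of 23.1, and its log2 difference of 4.55 was the 16th highest of the same 10259 genes. Among all 16823 protein-coding genes of the fit, it was the 129th highest. PPL (ENSG00000118898, chr16:4882507-4960741, minus strand) stood at 558, 556 and 484 units in hypoxia EVs, at 542, 728 and 629 in normoxia EVs, at 123.9, 151.9 and 138.5 in hypoxia cells, and at 139.9, 112.4 and 116.0 in normoxia cells. It thus reached the same EV level as EVPL, at 7.60 ± 1.39 RPKM for PPL and 8.25 ± 2.05 RPKM for EVPL (SD, n = 6 each). Its ratio of EVs to cells was lower, at 4.47, since PPL held more reads in the cells.

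DSP was abundant in the cells and in the EVs. DSP (ENSG00000096696, chr6:7541575-7586717, plus strand) stood at 3620.2, 3617 and 3839 units in hypoxia EVs, at 6573, 6444 and 4153 in normoxia EVs, at 5362, 5639.6 and 5502 in hypoxia cells, and at 5897, 6019 and 6422 in normoxia cells. Normoxia EV replicates 1 and 2 lay above every cell library and the other 4 EV libraries lay below every one. Per length, DSP had 44.9 ± 3.63 RPKM in EVs and 55.3 ± 0.918 RPKM in cells (SD, n = 6 each), so DSP and TCHH were of similar level in EVs (44.9 and 34.1 RPKM) and far apart in cells (55.3 and 1.20 RPKM). The median gene was 0.32 higher in EVs on the log2 scale, and DSP differed by -0.35. Over its coding sequence EVPL is 65.3% G and C, PPL 60.6% and DSP 48.3%. The 120 bases richest in G and C of each are set side by side, with runs of 4 or more G or C in capitals. They lie at chr17:76008452-76008571 (minus strand), chr16:4884372-4884491 (minus strand) and chr6:7541935-7542054 (plus strand) of GRCh38, and are 76.7%, 75.8% and 70.8% G and C.
EVPL: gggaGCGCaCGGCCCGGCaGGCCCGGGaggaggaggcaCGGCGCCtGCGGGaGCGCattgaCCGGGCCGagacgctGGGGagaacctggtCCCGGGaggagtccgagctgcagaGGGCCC
PPL: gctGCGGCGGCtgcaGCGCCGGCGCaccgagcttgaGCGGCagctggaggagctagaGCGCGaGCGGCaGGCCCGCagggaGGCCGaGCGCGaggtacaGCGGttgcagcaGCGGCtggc
DSP: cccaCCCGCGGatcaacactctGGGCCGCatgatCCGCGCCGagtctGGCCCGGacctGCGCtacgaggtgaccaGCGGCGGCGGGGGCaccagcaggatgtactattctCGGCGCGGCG

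**Figure D1:**
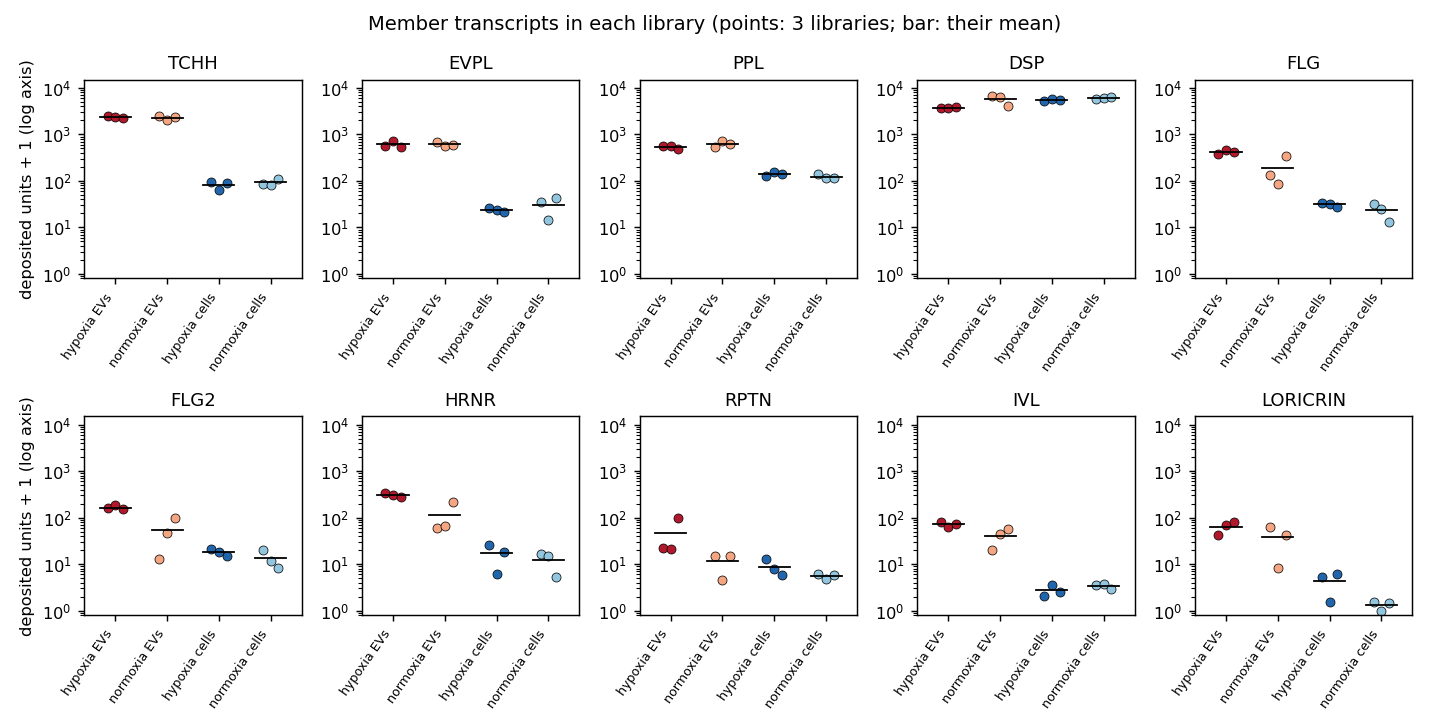
Deposited units (plus 1, log axis) of each of the 10 transcripts in the 12 libraries. Points are libraries and bars are means of 3. TCHH and EVPL sit at 547 units or more in all EV libraries and at 109.7 or less in all cell libraries, DSP sits between 3617 and 6573 in all 12, and the other 7 are at 151.9 or less in cells.

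FLG, FLG2, HRNR and RPTN, like TCHH, belong to the fused S100 family, which joins a calcium-binding S100 domain to long tandem repeats. Their genes lie side by side with TCHH in the epidermal differentiation complex of chromosome 1. FLG (ENSG00000143631, chr1:152302175-152325203, minus strand) encodes profilaggrin, which binds keratin filaments and is later broken down to moisturising amino acids. It stood at 373, 455 and 411 units in hypoxia EVs, at 130.8, 84.7 and 338 in normoxia EVs, at 33.0, 31.4 and 26.7 in hypoxia cells, and at 30.7, 24.2 and 12.03 in normoxia cells. FLG2 (ENSG00000143520, chr1:152348735-152360006, minus strand), a filaggrin relative of the outer epidermis, stood at 157.6, 182.7 and 148.8 units in hypoxia EVs, at 11.9, 46.8 and 97.7 in normoxia EVs, at 20.6, 17.0 and 13.6 in hypoxia cells, and at 19.1, 10.5 and 7.22 in normoxia cells. HRNR (ENSG00000197915, chr1:152212082-152224193, minus strand), the hornerin gene, stood at 345, 301.4 and 272 units in hypoxia EVs, at 59.5, 66.7 and 213 in normoxia EVs, at 25.4, 5.15 and 17.3 in hypoxia cells, and at 15.6, 14.3 and 4.33 in normoxia cells. For each of these 3 genes all hypoxia EV libraries lay above all normoxia EV libraries, as for 23.4% of all genes tested, and normoxia EV replicate 3 was the highest of its group. RPTN (ENSG00000215853, chr1:152153595-152159228, minus strand), the repetin gene, had 82 reads in the 6 EV libraries and 71 in the 6 cell libraries. In units it stood at 21.4, 19.8 and 95.8 in hypoxia EVs, at 14.3, 3.603 and 13.7 in normoxia EVs, at 11.9, 6.69 and 4.72 in hypoxia cells, and at 5.03, 3.86 and 4.81 in normoxia cells, so 1 hypoxia EV library carried most of its EV signal.

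Repeats limit what short reads can say about this family. Of the 50-base windows of a coding sequence, 54.5% in HRNR and 31.3% in FLG occur more than once in the same coding sequence, against 6.43% in FLG2, 4.43% in TCHH and 1.22% in RPTN. Reads from such windows may have been dropped or placed on 1 copy, and how this was set is not stated in the sources used here. The 50 bases with the most copies in HRNR, 7 of them, show the repeat; this copy lies at chr1:152219690-152219739 (minus strand, GRCh38), and no base is marked.
HRNR: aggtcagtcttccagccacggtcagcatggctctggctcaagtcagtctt
None of the 50-base windows of EVPL, PPL, DSP or LORICRIN is repeated within its gene, and 2.42% of those of EVPL also occur in EVPLL, a related gene. The antisense RNA gene FLG-AS1 covers 5.52% of the FLG exon bases on the opposite strand and none of the exon bases of FLG2 or HRNR. Since the strand setting of the counting is not given, FLG values may hold antisense reads.

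IVL and LORICRIN encode envelope precursors, and both were near the limit of detection in the cells. IVL (ENSG00000163207, chr1:152908545-152911886, plus strand) encodes involucrin, an early envelope protein. It stood at 81.5, 60.9 and 70.6 units in hypoxia EVs, at 19.0, 43.2 and 56.7 in normoxia EVs, at 1.08, 2.57 and 1.57 in hypoxia cells, and at 2.52, 2.76 and 1.92 in normoxia cells. LORICRIN (ENSG00000203782, chr1:153259700-153262122, plus strand) encodes the main protein of the mature envelope. It stood at 41.4, 68.5 and 78.2 units in hypoxia EVs, at 61.8, 7.21 and 41.0 in normoxia EVs, at 4.33, 0.515 and 5.24 in hypoxia cells, and at 0.503, 0 and 0.481 in normoxia cells. The cell values of both rest on few reads, 24 for IVL and 21 for LORICRIN over 6 libraries, against 190 and 158 in the 6 EV libraries. Several of these cell values are at or below the 1.44 to 1.65 units that a count of 0 allows, so ratios to cells are loose for both genes. EVs exceeded cells by 4.10 for IVL and 4.24 for LORICRIN on the log2(value + 1) scale, and by 3.76 for HRNR, 3.28 for FLG, 2.43 for FLG2, 2.15 for PPL and 1.48 for RPTN. The RPTN difference turned to -0.64 once the olfactory receptor density was subtracted. Of the 10 genes, 7 had all EV libraries above all cell libraries, as did 19.8% of the 24171 genes tested; 21.3% had all EV libraries below, as none of the 10 did. Over all genes, limma called 74.9%, with 43.1% higher and 31.8% lower in EVs. Nothing is read from these shares for the members, which were chosen from the same contrast.

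Olfactory receptor genes gave a measure of how many reads fell on genes that a kidney line is not known to use. Over 354 of them, the density was 1.03 ± 0.0724 RPKM in hypoxia EVs, 0.262 ± 0.196 in normoxia EVs, 0.0710 ± 0.0146 in hypoxia cells and 0.0471 ± 0.0114 in normoxia cells (SD, n = 3 each). The normoxia EV libraries held 0.104, 0.200 and 0.481 RPKM. Divided by this density in the same library, TCHH stood at 43.3, 41.9 and 35.8 in hypoxia EVs, at 238, 115 and 68.0 in normoxia EVs, at 14.3 to 19.96 in hypoxia cells, and at 20.7 to 41.0 in normoxia cells. EVPL stood at 8.04 to 12.1 in hypoxia EVs, 16.2 to 61.0 in normoxia EVs, 3.86 to 4.94 in hypoxia cells and 3.26 to 14.6 in normoxia cells. TCHH and EVPL were thus above the olfactory receptor density in each of the 12 libraries, the cells included. PPL was at 6.95 to 48.0 times that density in EVs and 18.8 to 39.5 times in cells, and DSP at 42.0 to 443 times in EVs and at least 619 times in cells.

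FLG, FLG2, HRNR, RPTN and the precursors IVL and LORICRIN mostly lay nearer to that density than TCHH of the same S100 family did. FLG was at 2.63 to 6.98 times the olfactory receptor density in EVs and 2.47 to 4.15 times in cells. FLG2 was at 0.887 to 2.496 times in EVs and 2.04 to 3.62 times in cells, and HRNR at 2.74 to 4.47 times in EVs and 0.856 to 3.08 times in cells. In units FLG was 11.3 times as high in EVs. RPTN was at 0.3998 to 2.96 times in EVs and 1.92 to 3.88 times in cells. IVL was at 3.53 to 7.95 times in EVs and 0.585 to 2.34 times in cells, and LORICRIN at 2.32 to 34.2 times in EVs and 0 to 6.76 times in cells. On this scale 8 of the 10 genes, TCHH and EVPL among them, overlapped between the 6 EV and the 6 cell libraries. The exceptions were IVL, higher in EVs, and DSP, lower in EVs. The share of all genes that overlap on this scale was not counted, so nothing about the members is read from that number. Within hypoxia and within normoxia, TCHH and EVPL lay higher in each EV library than in any cell library. The part of the olfactory receptor density in these EV levels was not tested.

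**Figure D2:**
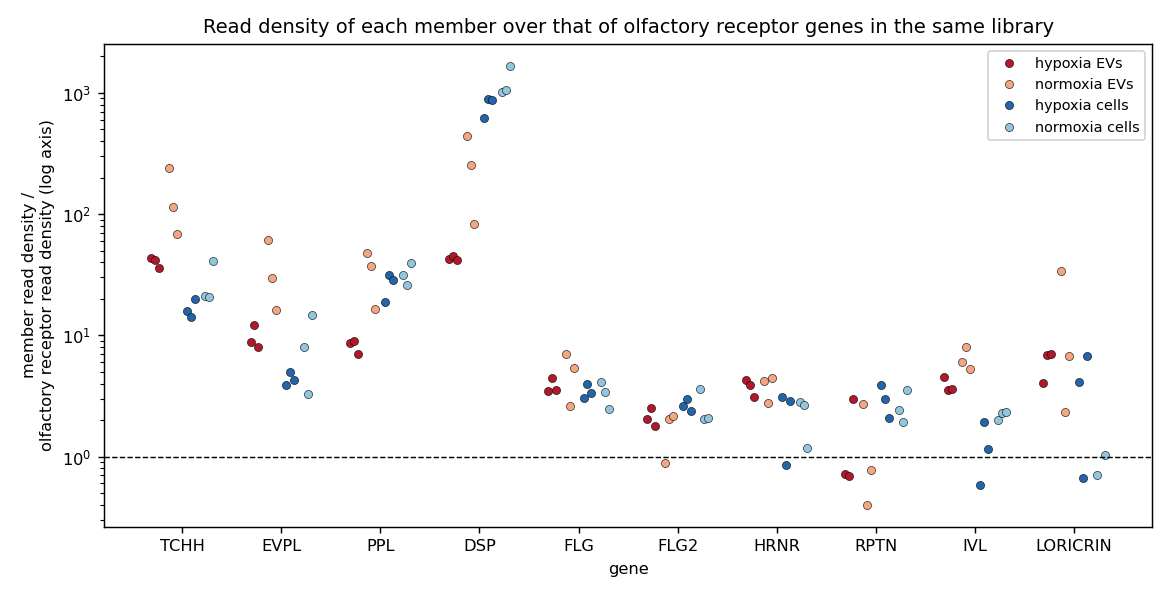
Read density of each transcript divided by the density over 354 olfactory receptor genes in the same library (log axis), by group; each point is a library and the dashed line marks equal density. DSP, TCHH, EVPL and PPL lie above the line in all libraries, and FLG, FLG2, HRNR and RPTN lie at 0.3998 to 6.98; the normoxia cell library with no LORICRIN read is not drawn.

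Hypoxia was compared with normoxia in the EVs to see whether these transcripts follow the oxygen supply of the cells. FLG, FLG2 and HRNR rose in hypoxia EVs, and the other 7 did not pass, TCHH and EVPL having log2 fold changes of 0.07 and -0.02. The median of the 27904 genes tested was itself 0.60 higher in hypoxia EVs on the log2(value + 1) scale, and the 10 members had a median of 1.04. In limma with Benjamini-Hochberg adjustment over all genes, FLG averaged 413 ± 41.3 units in hypoxia EVs and 184.5 ± 135.0 in normoxia EVs (SD, n = 3 each), a log2 fold change of 1.40 (SE 0.36, limma adjusted p = 0.0243). FLG2 averaged 163.0 ± 17.6 in hypoxia EVs and 52.2 ± 43.2 in normoxia EVs (SD, n = 3 each), with a log2 fold change of 2.05 (SE 0.57, limma adjusted p = 0.0291). HRNR averaged 306 ± 36.4 in hypoxia EVs and 113.1 ± 86.7 in normoxia EVs (SD, n = 3 each), with a log2 fold change of 1.68 (SE 0.40, limma adjusted p = 0.0187). These 3 of 10 members called higher stand beside 5.68% of all genes tested (12.3% in either direction). That background depends on the scaling: 1586 of the 27904 genes were called higher and 1846 lower on the deposited scale, 4201 higher and 188 lower with equal library totals, where 4 members were called higher, and 1026 higher and 2477 lower in edgeR. They exceeded the median gene by 0.80, 1.46 and 1.08. The olfactory receptor density, in deposited units per kb of exon, was 2.85 times as high in hypoxia EVs as in normoxia EVs (8.49 ± 0.526 and 2.98 ± 1.78, SD, n = 3 each), a log2 difference of 1.51. Divided by that density, FLG stood at 3.48 to 4.45 in hypoxia EVs and 2.63 to 6.98 in normoxia EVs, FLG2 at 1.80 to 2.496 in hypoxia EVs and 0.887 to 2.16 in normoxia EVs, and HRNR at 3.12 to 4.27 in hypoxia EVs and 2.74 to 4.47 in normoxia EVs, so each overlapped. Its part in the 3 calls was not tested. All 3 calls were lost with any EV library other than normoxia EV replicate 3 left out (adjusted p from 0.0508 to 0.129), and with the olfactory receptor density subtracted (0.126 to 0.251). Those leave-out fits called only 7 to 636 genes in all, and the subtracted fit called 0 of 27036. These losses are therefore not particular to the 3 genes. The FLG call was also lost in DESeq2 on the recovered reads (log2 fold change 1.07, adjusted p = 0.0543).

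TCHH averaged 2389 ± 139 units in hypoxia EVs and 2276 ± 218 in normoxia EVs (SD, n = 3 each). Its log2 fold change was 0.07 (SE 0.20, 95% interval -0.35 to 0.49, limma adjusted p = 0.805), which lies 0.52 under the median gene. EVPL averaged 609.7 ± 101.0 in hypoxia EVs and 613 ± 55.5 in normoxia EVs (SD, n = 3 each), with a log2 fold change of -0.02 (interval -0.49 to 0.45, limma adjusted p = 0.963), and PPL 533 ± 42.1 in hypoxia EVs and 633 ± 92.8 in normoxia EVs (log2 fold change -0.24, interval -0.71 to 0.23, adjusted p = 0.44). These values depend on the deposited scaling. With equal library totals the median gene was 1.13 higher in hypoxia EVs, TCHH was called higher at 0.64 (limma adjusted p = 0.0147), and EVPL and PPL turned positive at 0.55 and 0.33, all 3 still under that median. In RPKM, TCHH was 44.4, 40.2 and 39.5 in hypoxia EVs and 24.7, 23.0 and 32.7 in normoxia EVs.

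DSP was lower in every hypoxia EV library than in any normoxia EV library, as were 14.5% of all genes tested, and averaged 3692 ± 127 units in hypoxia EVs and 5723 ± 1361 in normoxia EVs (SD, n = 3 each). The log2 fold change of -0.60 (SE 0.23) did not pass in limma (adjusted p = 0.074). It passed in edgeR on the recovered reads (-0.68, adjusted p = 0.0429), in DESeq2 (-0.74, adjusted p = 0.00629) and without normoxia EV replicate 3 (-0.82, limma adjusted p = 0.00107), and the fold change came to -0.035 with equal library totals. Without normoxia EV replicate 3, limma called 10078 of all 27979 genes. RPTN, IVL and LORICRIN had log2 fold changes of 1.82, 0.95 and 1.14 in EVs, with limma adjusted p-values of 0.198, 0.255 and 0.267. RPTN and IVL did not overlap between hypoxia EVs and normoxia EVs, as held for 23.4% of all genes with hypoxia above.

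**Figure D3:**
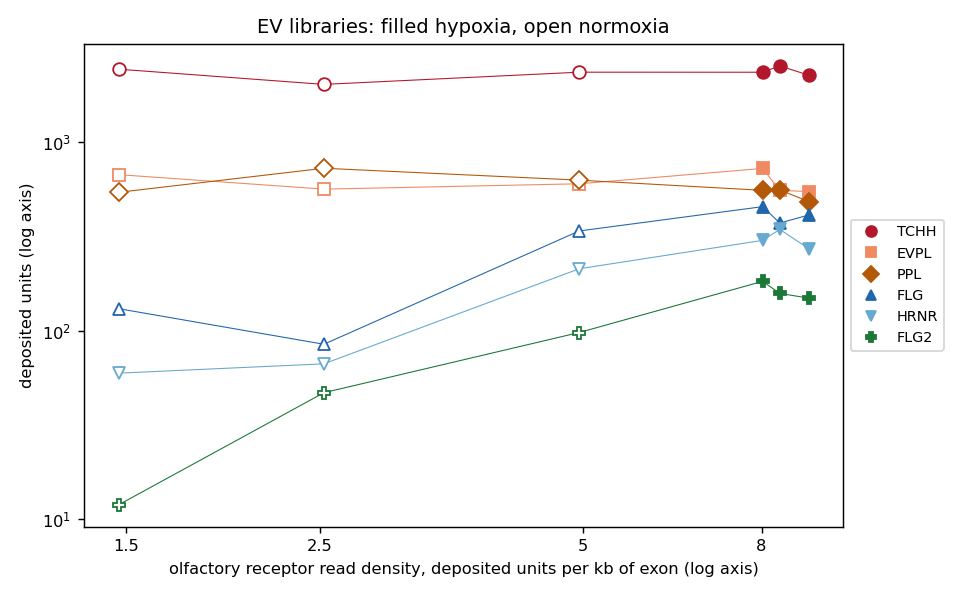
Deposited units of 6 transcripts (log axis) against the olfactory receptor read density of the same EV library (units per kb of exon, log axis); filled symbols are hypoxia EVs and open symbols normoxia EVs, and lines join the libraries of a transcript. TCHH, EVPL and PPL overlap between the groups, while FLG, HRNR and FLG2 are higher in every hypoxia EV library, with normoxia EV replicate 3 (open, at 4.95) between the other normoxia EV libraries and hypoxia.

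The same comparison within the cells asked whether the transcripts change where they are made. Of the 10 genes, 7 reached the mean of 10 units needed for the test, and IVL, LORICRIN and RPTN did not. DSP was lower in hypoxia cells, at 5501 ± 139 units in hypoxia cells and 6113 ± 275 in normoxia cells (SD, n = 3 each), with a log2 fold change of -0.15 (SE 0.05, limma adjusted p = 0.0221), against 22.4% of all genes called lower, 8.01% higher and 30.4% in either direction. All 3 hypoxia cell libraries lay under all 3 normoxia cell libraries, as for 27.6% of all genes tested. That call was lost with TMM factors, equal totals, edgeR and DESeq2 (-0.10 to -0.03, adjusted p from 0.133 to 0.696), and without normoxia cell replicate 3 (adjusted p = 0.0816), hypoxia cell replicate 1 (0.0711) or hypoxia cell replicate 3 (0.0674). The other 6 did not pass and overlapped between hypoxia cells and normoxia cells, whereas 12.7% of all genes had hypoxia above. TCHH averaged 81.9 ± 17.3 units in hypoxia cells and 92.3 ± 15.2 in normoxia cells (SD, n = 3 each), with a log2 fold change of -0.18 (interval -0.58 to 0.21, limma adjusted p = 0.542). EVPL averaged 22.8 ± 2.23 in hypoxia cells and 30.1 ± 14.6 in normoxia cells (log2 fold change -0.25, limma adjusted p = 0.663, turning to 0.05 without normoxia cell replicate 3). PPL, FLG, FLG2 and HRNR had log2 fold changes of 0.17, 0.52, 0.53 and 0.38 in cells, with limma adjusted p-values of 0.46, 0.297, 0.433 and 0.651.

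The hypoxia responses of EVs and cells were then tested against each other in a fit over all 12 libraries. Of the 7 members that also reached the test's minimum in cells, none passed in limma, where 2.31% of all genes did. RPTN, IVL and LORICRIN entered that fit through their EV values and are too low in cells to be read there. The differences of the log2 fold changes, EVs minus cells, were 1.53 for FLG2 (SE 0.84, adjusted p = 0.295), 1.299 for HRNR (SE 0.82, adjusted p = 0.355) and 0.88 for FLG (SE 0.60, adjusted p = 0.384). The change of these genes in EVs was thus not shown to differ from their change in cells, where they did not pass. TCHH and EVPL differed by 0.25 and 0.23 (intervals -0.29 to 0.80 and -0.71 to 1.18). Without normoxia EV replicate 3, FLG (1.44, adjusted p = 0.0496), FLG2 (2.19, adjusted p = 0.0476) and DSP (-0.67, adjusted p = 0.000609) passed in limma. In that fit 5438 of all 23829 genes passed, so nothing particular to the members is read from it.

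**Figure D4:**
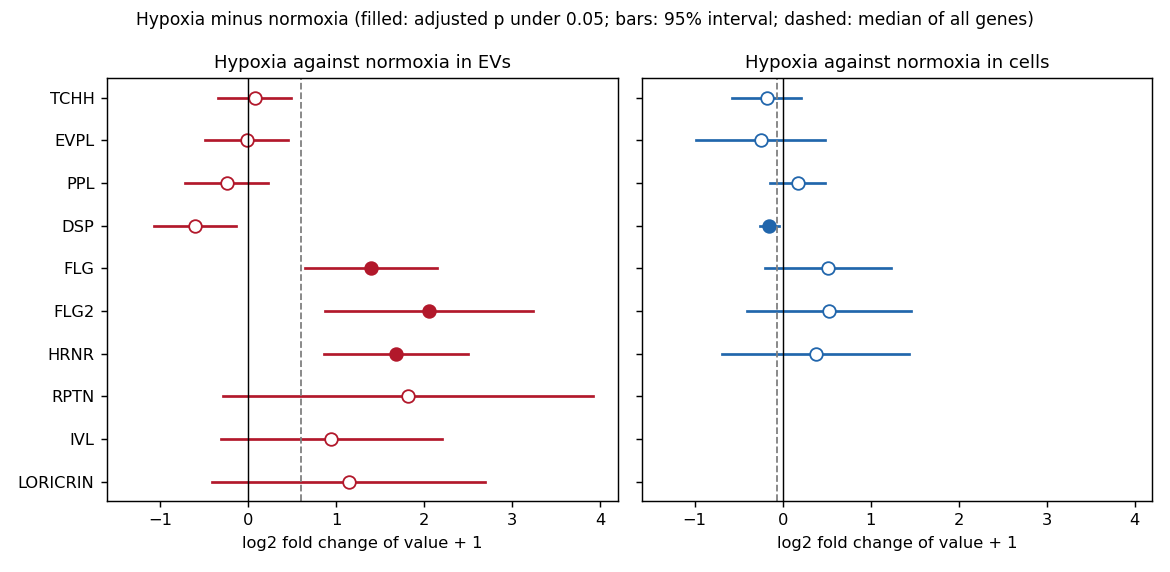
Hypoxia minus normoxia as log2 fold change of value + 1, in EVs and in cells, with 95% intervals; filled symbols have a limma adjusted p under 0.05 and the dashed line is the median of all genes tested. FLG, FLG2 and HRNR are filled in EVs and DSP in cells, and the intervals of TCHH and EVPL span 0 in both panels; RPTN, IVL and LORICRIN were under the filter in cells.

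The promoters of TCHH and FLG are shown because the genes lie in the same cluster, hold both motifs searched, and FLG was called higher in hypoxia EVs while TCHH was not, a difference between genes that was not itself tested. Each runs from 250 bases before to 50 bases after the gene start, from RefSeq on GRCh38.p14, and lies on the minus strand, at chr1:152115395-152115694 for TCHH and chr1:152325190-152325489 for FLG. Capitals mark ACGTG or GCGTG, the core that hypoxia-inducible factors bind, and TGANTCA, either of them on either strand. TGANTCA is looser than the AP-1 core, TGA(C or G)TCA, and the sites marked here read TGAATCA, which is not that core.
TCHH promoter: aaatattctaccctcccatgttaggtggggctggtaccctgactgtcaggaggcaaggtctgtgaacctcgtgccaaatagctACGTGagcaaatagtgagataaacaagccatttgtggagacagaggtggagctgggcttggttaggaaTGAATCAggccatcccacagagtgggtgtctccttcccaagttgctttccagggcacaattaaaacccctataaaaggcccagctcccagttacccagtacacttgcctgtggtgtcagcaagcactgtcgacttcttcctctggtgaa
FLG promoter: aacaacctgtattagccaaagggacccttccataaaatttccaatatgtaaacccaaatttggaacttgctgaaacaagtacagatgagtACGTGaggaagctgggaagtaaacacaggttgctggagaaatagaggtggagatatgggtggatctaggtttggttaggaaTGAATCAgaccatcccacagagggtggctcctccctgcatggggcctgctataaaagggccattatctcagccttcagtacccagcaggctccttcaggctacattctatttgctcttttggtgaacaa
Promoters matched for 8 of the 10 genes. The hypoxia core stood in 3 of the 8 (TCHH, FLG and LORICRIN) and in 48.4% of 35116 promoters of the same length. The looser string TGANTCA stood in 6 of the 8 (TCHH, RPTN, FLG, FLG2, IVL and LORICRIN) and in 7.71% of all promoters. A match is a string of letters and not a shown binding site.

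The difference between EVs and cells, by which the group was chosen, is set beside the G and C share of the coding sequence as a description of these 10 genes. LORICRIN, at 75.1% G and C, EVPL, IVL and TCHH, at 60.2% or more, had log2 differences above 4, and FLG2, RPTN and DSP, all under 50%, had 2.43, 1.48 and -0.35. PPL was the exception, with 60.6% and 2.15. Over the 10 genes Spearman's rho was 0.76 and Pearson's r 0.72 for G and C, and rho was -0.28 for coding length and 0.04 for the purine share. For the cell level in units, rho was -0.25 and r -0.74. Over 16818 protein-coding genes rho was 0.47 for G and C, within classes of cell level 0.39 to 0.59, and -0.23 for the purine share. The cell level, which is part of the difference itself, had the strongest relation there, with rho -0.73. These are descriptions across genes that share the same 12 libraries, and genes are not replicates. Among 897 genes with a cell mean of 20 to 200 units and 60 to 65% G and C, where TCHH and PPL belong, the median log2 difference was 0.67 and the upper quartile 1.39, against 4.74 for TCHH and 2.15 for PPL. Among 180 genes above 2000 units in cells with 45 to 50% G and C, the median was -1.34, and DSP was at -0.35. Medians were higher among genes at 20 units or less in cells. At 45 to 50% G and C, FLG2 (2.43) and RPTN (1.48) lay within the quartiles (1.40 to 2.84, median 2.16). The median was 3.17 at 55 to 60% (HRNR 3.76), 3.27 at 60 to 65% (IVL 4.10) and 2.97 at 65 to 80% (LORICRIN 4.24). The upper quartiles there were 3.74, 3.84 and 3.74. At 20 to 200 units it was 0.54 for the median at 55 to 60% (FLG 3.28) and 0.62 at 65 to 80% (EVPL 4.55).

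**Figure D5:**
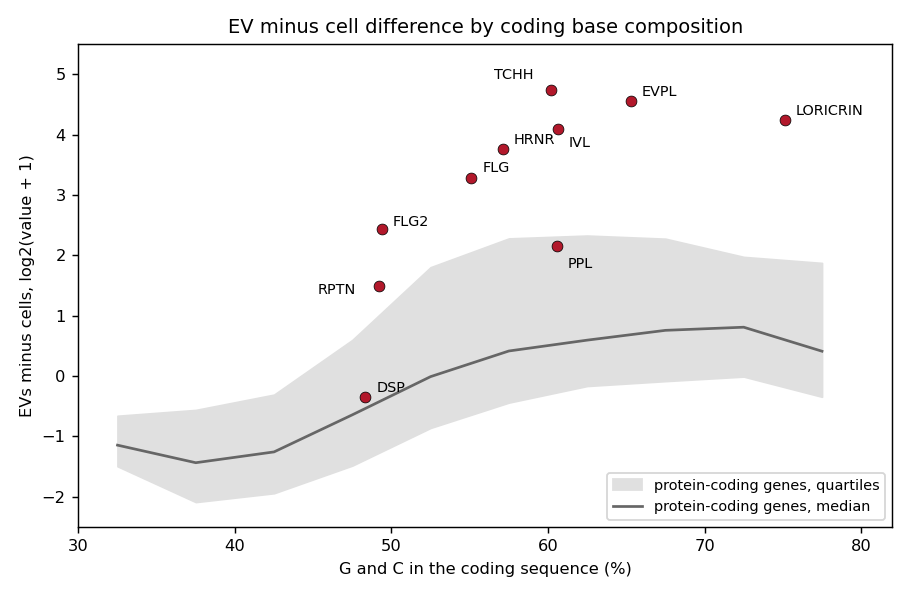
EVs minus cells on the log2(value + 1) scale against the share of G and C in the coding sequence (%), for the 10 genes (points) and for all protein-coding genes in bins of 5 percentage points (line, median; shading, quartiles). TCHH, EVPL, IVL and LORICRIN lie above 4 log2 units, PPL just under the upper quartile and DSP near the median.

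By profile over the 12 libraries, TCHH and EVPL were near neighbours of each other. Among 12584 protein-coding genes averaging 50 units or more, log2(value + 1) of TCHH had its highest Pearson correlations with MUC12 (0.991), MUC5B (0.990), MUC4 (0.990), EVPL (0.990) and MROH1 (0.989). MUC12, MUC5B and MUC4 encode mucins with long tandem repeats. MUC4 averaged 4605 units in hypoxia EVs, 3689 in normoxia EVs, 107.5 in hypoxia cells and 71.0 in normoxia cells. EVPL was closest to TCHH (0.990), TBC1D10A (0.988), IQCN (0.985), TRPM5 (0.984) and BSND (0.982). All of these profiles are set mainly by the step between EVs and cells, which the choice of TCHH and EVPL fixed.

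The other genes of the epidermal differentiation complex were low in cells. Of 43 neighbours, none reached the test's minimum in cells and 27 did in EVs, where 2 were called higher in hypoxia EVs, TCHHL1 (log2 fold change 3.03, limma adjusted p = 0.0333) and KPRP (1.70, adjusted p = 0.0201), the keratinocyte proline-rich protein gene. These 2 of 27 stand beside 5.68% of all genes called higher, and the median of 1.74 beside 0.60 for all genes. The test's minimum is on the mean of the 6 EV libraries, so low genes can enter through 1 group. SPRR2E (20.8 units in hypoxia EVs and 1.44 in normoxia EVs) entered through hypoxia, and S100A12 (9.43 and 10.9) through normoxia. No result about the list is read from that median. KPRP averaged 199.6 units in hypoxia EVs, 63.2 in normoxia EVs, 0.698 in hypoxia cells and 2.37 in normoxia cells. Of 23 hair follicle structure genes, which include the inner root sheath keratins, 21 were tested in EVs and 3 rose there in hypoxia, KRT73 (2.49), KRT72 (1.80) and KRT71 (1.65), with limma adjusted p-values of 0.0276, 0.0359 and 0.0363, beside the same 5.68% of all genes; edgeR called 2 of the 21. None of the 4 tested in cells was called. TCHH, whose product is cross-linked to such keratins in the root sheath, had a log2 fold change of 0.07 in the same comparison.

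Among the enzymes that cross-link and process envelope proteins, 4 of 18 rose and 1 fell in hypoxia EVs, against 5.68% of all genes higher and 6.62% lower. CASP14, a caspase that takes part in breaking down filaggrin (log2 fold change 1.68, limma adjusted p = 0.0262), KLK5 (4.13, 0.0413), ST14 (1.65, 0.0441) and TGM5, a transglutaminase (2.37, 0.0492), rose, and SPINK5, an inhibitor of kallikreins (-1.16, 0.0481), fell. KLK5 had reads in 4 of the 6 EV libraries, at 73.8 ± 37.4 units in hypoxia EVs and 19.5 ± 33.9 in normoxia EVs (SD, n = 3 each). Its fold change thus rests on normoxia EV libraries at 0 and on the 1 unit added before taking logs. The counts moved to 1 higher and 2 lower in edgeR and to 10 higher and 0 lower with equal totals, alongside the shift of the background given above. In cells 5 were tested, PADI2 (0.84) rose, and SPINK5 (-0.60) and BLMH (-0.76) fell, beside 8.01% of all genes higher and 22.4% lower. Of 12 lipid genes of the envelope tested in EVs, CERS3 (2.85) and CYP4F22 (1.87), which make and modify the ceramides of the barrier, rose, although edgeR called 0 of the 12, DESeq2 1 and the fit with equal totals 7, and none of 9 was called in cells by limma.

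Several of the wider plakin and desmosome genes had high levels in the cells. PLEC, the plectin gene, averaged 5346 units in hypoxia EVs, 9336 in normoxia EVs, 4536 in hypoxia cells and 4027 in normoxia cells. It fell in hypoxia EVs (log2 fold change -0.78, limma adjusted p = 0.0407; not called with equal totals) and rose in hypoxia cells (0.17, adjusted p = 0.0101). DST rose (0.14) and MACF1 fell (-0.26) in hypoxia cells, and in EVs neither was called. Over all genes, 6.62% were called lower in EVs, and 8.01% higher and 22.4% lower in cells. Of 12 desmosome genes tested in EVs, DSG3 was called higher (2.22, limma adjusted p = 0.0459), beside 5.68% of all genes. It was not called with TMM factors, edgeR or DESeq2. Of 6 tested in cells, DSG2 (-0.44), DSC3 (-0.44) and PKP2 (-0.36) fell in hypoxia, beside 22.4% of all genes called lower. With equal totals, edgeR and DESeq2, 2 of the 6 were called lower. JUP, the plakoglobin gene, was at 491.6 units in hypoxia EVs and 649 in normoxia EVs.

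Of 20 transcription factors of squamous and hair differentiation tested in EVs, GRHL2 (3.50) and FOXN1 (1.51) rose and MAF (-0.81) fell in hypoxia (3 higher and 0 lower with equal totals). In EVs 5.68% of all genes were called higher and 6.62% lower. Of 15 tested in cells, SOX9 (0.84), MAF (0.41), KLF5 (0.34) and KLF4 (0.43) rose and PRDM1 (-0.66) fell, beside 8.01% of all genes higher and 22.4% lower. TP63, which drives the squamous programme, averaged 81.4 units in hypoxia EVs, 54.6 in normoxia EVs, 12.4 in hypoxia cells and 6.73 in normoxia cells. None of the calls in EVs on these 7 lists of related genes remained with the olfactory receptor density subtracted. In that fit 0 of 27036 genes passed in limma, with 7145 at an unadjusted p under 0.05.

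Of the markers of keratinocytes, the cells that normally hold these transcripts, 5 of the 17 tested were called higher in hypoxia EVs, beside 5.68% of all genes. They were KRT1 (3.55), KRT5 (2.40), KRT6A (2.29), DSG3 (2.22) and KRT15 (1.59). With TMM factors 3 were called, in edgeR 2, in DESeq2 2 and with equal totals 8. The 18 keratinocyte markers summed to 1999.97 to 2167 units in hypoxia EVs, 1028 to 1632 in normoxia EVs, 671 to 793 in hypoxia cells and 861 to 979 in normoxia cells. All 18 averaged 10 units or more in hypoxia EVs, 15 in normoxia EVs, 5 in hypoxia cells and 2 in normoxia cells. Few genes thus carried the cell sums. Over the olfactory receptor density the 18 together stood at 3.67 to 4.30 in hypoxia EVs, 5.49 to 11.6 in normoxia EVs, 15.4 to 20.3 in hypoxia cells and 24.7 to 40.2 in normoxia cells. Thus the sum was higher in hypoxia EVs than in normoxia EVs in units, and lower relative to that density. CALML5 was at 0 in all hypoxia cell libraries and no marker was at 0 in either EV group. Markers of simple epithelium had 2 of 9 called higher in hypoxia EVs (KRT19, 2.66, and ELF3, 1.86), and blood cell and plasma markers 2 of 16 (APOB, 2.26, and TF, 2.13; 1 of 16 in edgeR and in DESeq2). The 20 blood cell and plasma markers summed to 916 to 1029 units in hypoxia EVs, 321 to 665 in normoxia EVs, 97.3 to 179 in hypoxia cells and 119.3 to 125.1 in normoxia cells, and stood at 1.34 to 3.97 times the olfactory receptor density over the 12 libraries. Of the 9 HEK293 line markers, STMN1 (-0.82) and NEFM (-0.83) were called lower in hypoxia EVs, beside 6.62% of all genes, while with equal totals 0 were called lower and 1 higher. The part of these marker values in the members' values was not tested.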

How the data were processed

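The deposited table held a signal per gene and library. The values show that the authors divided read counts by 1 factor per library. Per the submitters' processing notes, Bowtie 0.12.2, DESeq2 1.30.1 and build hg38 (GRCh38) were used. The sources used here do not give the counter, annotation, strand setting or filters. Whole reads were recovered from the step of each library, and 100% of values came out whole within 0.01. Libraries held 3259453 to 23400813 reads. A count of 0 allows 3 reads, 1.44 to 7.57 units, and such limits cover counting error only, since the table holds no molecular identifiers. Names, positions and exon lengths came from GENCODE release 29 (52338 of 57773 IDs matched), and promoters from RefSeq.

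Log2(value + 1) was tested with limma-trend (version 3.58.1 under R 4.3.3) wherever the libraries fitted averaged 10 units or more for a gene. P-values were Benjamini-Hochberg adjusted over all genes, with a threshold of 0.05. This scale understates fold changes at low values. Hypoxia was set against normoxia in the 6 EV and in the 6 cell libraries, and the difference of these responses was fitted over 12. In EVs limma called 3432 genes, and count tests on the recovered reads called 3503 (edgeR 4.0.16) and 4542 (DESeq2 1.42.0). Replicate pairs differed by more than counting noise, so the fits used the spread among libraries and not counting error alone. That spread may be technical, and it does not show that the libraries are independent samples. The fits were tested on simulated data. The members and gene lists were chosen with earlier results of these data known. All members are named. From each list come the genes past the threshold, at most 4 by p, and up to 3 with the highest mean in hypoxia EVs, and for TCHH and EVPL the 5 genes most like them. TP63, and the last by p where a list had 5 calls, were chosen after their values were seen. Alternatives were pseudocounts of 0.5 and 5, a filter of 50 or none, TMM factors, equal totals, the count tools, a replicate block, a fit over all libraries, and each library left out.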

Additional observations from a re-analysis of the deposited data

How the results depend on the processing

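In EVs the count of genes called in hypoxia, 3432, became 5311 with a pseudocount of 5, 8238 with the fit over 12 libraries, 0 with the olfactory receptor density subtracted, and 7 (without normoxia EV replicate 2) to 10078 (without normoxia EV replicate 3) with 1 library left out. Of the 3 members called there, 0 remained with that density subtracted, and 0 to 4 members were called with 1 library left out. In cells 5254 genes were called, and 84 in the fit over 12 libraries. The 1 member called in cells became 0 with TMM factors, equal totals, edgeR, DESeq2 and the fit over 12, and 0 to 1 with 1 library left out. For the difference of responses, 559 genes became 873 with a filter of 50, 105 with none, 1737 with TMM factors, 1664 in edgeR, 2179 in DESeq2, 1160 with the density subtracted and 38 (without hypoxia cell replicate 2) to 5438 (without normoxia EV replicate 3) with 1 library left out. For EVs against cells, 18094 became 10666 with a filter of 50 and 16970 to 19210 with 1 library left out. The following log2 values changed sign. In EVs, EVPL had 0.55 with equal totals, 0.52 with equal totals without the construct genes, and -0.15 to 0.055 with 1 library left out. PPL had 0.33 and 0.29 with the same totals, and TCHH had -0.033 in DESeq2 and -0.0077 to 0.13 with 1 library left out. In cells with 1 library left out, TCHH ran from -0.30 to 0.0015, EVPL from -0.72 to 0.049 and HRNR from -0.15 to 0.99. In the difference of responses, LORICRIN had 0.37 with a pseudocount of 5, 0.13 with equal totals and -1.24 to 0.23 with 1 library left out, PPL had 0.031 with equal totals, and EVPL had -0.065 to 0.70 with 1 library left out. RPTN in EVs against cells had -0.64 with the density subtracted. The cause was not tested for any of these. The subtraction and the totals without the construct genes were chosen after seeing the data. Replicate numbers were not used as pairs in the main fits. No pair with the same number correlated above 0.049, which over 3 numbers cannot show whether samples were paired. With the replicate block, 5409 genes were called in EVs, with DSP as the 4th member. Depth limits IVL, LORICRIN and RPTN in cells.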
